A study of Homo sapiens with 4 samples.

Results

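Translation factors are the proteins that load ribosomes onto messages and move them along. The 55 genes described here were all symbols of the EIF1 to EIF6 and EEF1 to EEF2 series, apart from the eIF2 kinases and the 4E-binding proteins, whose level averaged 1 FPKM or more across 4 libraries. They were 55 of 26255 symbols in the table and of 12260 genes that reached that mean. FPKM is fragments scaled to transcript length and to a measure of library size, so levels can be compared between genes. The cells were TOV21G, a human line from an ovarian clear cell carcinoma, in 4 cultures of 1 library each. As2O3 (arsenic trioxide, a thiol-reactive drug) was given at 1 µM, GSK458 (an inhibitor of PI3K and mTOR) at 0.1 µM, and another culture received both drugs at those doses, each for 48 h. The control received no drugs, with no time given in its labels, and all 4 cultures are of that 1 line.

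Initiation begins when eIF2 brings the initiator tRNA to the small ribosomal subunit, which eIF1, eIF1A, eIF3 and eIF5 prepare, and when eIF4F (the cap-binding eIF4E, the scaffold eIF4G and the helicase eIF4A) recruits the message. The elongation factor eEF1A then delivers each aminoacyl-tRNA and eEF2 moves the ribosome by a codon. The kinase mTORC1 controls eIF4E through the 4E-binding proteins. It also controls the translation of messages that begin with a run of pyrimidines, the terminal oligopyrimidine or TOP messages, which encode ribosomal proteins, elongation factors and some initiation factors.

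Each difference is a treated library against another on the log2(FPKM + 1) scale, which understates differences of low genes, and a gene is counted as apart at 1.5-fold. With 1 library per group there is no replicate error, test or p-value, and every value describes these cultures. The 3 comparisons with the control share that library, so a value that is unusual in it enters all 3. In a bulk library a value is a share of that library's RNA, so fewer cells of a kind and less RNA per cell cannot be told apart. FPKM sums were 543975 to 588892, 16157 to 16409 genes were above 0, and the steps between low values put depth at 85.8% to 109% of the control's, with the absolute depth unknown. Those steps follow the library size that the values were scaled to, which need not be the count of mapped fragments. Among clear cell carcinoma markers, PAX8 was at 83.6 to 149 FPKM and ANXA4 at 156 to 309.6 FPKM, while NAPSA and EPCAM averaged below 1 FPKM. The serous marker WT1 was at most 0.13 FPKM, PTPRC, CD3E, LUM and KDR were at 0 in all 4 libraries, and the summed endothelial list reached 0.079 FPKM. The summed fibroblast list (5 genes) was 2.32 to 5.98 FPKM and the summed immune list (5 genes) 1.01 to 4.32 FPKM, mostly COL1A1 and CD68, and their part in the results was not tested.

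The rule first found 64 symbols, of which 9 were below the minimum and 4 of these were at 0 in every library. The member nearest the minimum was EIF5AL1, an EIF5A-like gene, with a mean of 2.06 FPKM, and the first below it was the readthrough EEF1E1-BLOC1S5 at 0.78 FPKM. Among the members are 6 elongation factors, 13 EIF3 subunits, 35 other factors and 1 antisense RNA, EIF3J-AS1. EIF3C stood at 0.036 to 0.091 FPKM beside its near-identical copy EIF3CL at 3.14 to 6.04 FPKM, both far below the next subunit, EIF3J, at 33.4 to 38.5 FPKM. Reads of that pair, and of genes with processed pseudogenes such as EEF1A1, may be assigned unevenly, so their levels are uncertain.

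The start sites of some factors are shown because the first letters of a message define the TOP class. RefSeq promoter windows (GRCh38.p14, matched by symbol) gave 1 start for 34 of the 54 factors, several starts for 10 and no entry for 10. Each line holds 30 bases, with the annotated first base of the message at position 16. Capitals mark a run that begins with C and goes on with at least 4 letters that are each C or T. It was counted from a C within 5 bases of that start, and any letters before those bases were left out. The first 8 genes were higher with GSK458 than in the control, EIF3K held a run and was slightly lower, and the last 4 were lower. These windows are a selection and do not show how often run and direction go together. Of all 34 factors, 13 of 15 with a run and 5 of 19 without one were higher with GSK458. Among all expressed genes with 1 start, 809 of 1482 with a run and 2243 of 5077 without one were higher. Among those not printed, EEF2K held a run and was lower, and EIF1B held none and was higher.
EEF1A1 (chr6:73521018-73521047, minus strand): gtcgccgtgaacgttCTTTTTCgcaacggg
EEF2 (chr19:3985449-3985478, minus strand): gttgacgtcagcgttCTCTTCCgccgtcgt
EIF3M (chr11:32583816-32583845, plus strand): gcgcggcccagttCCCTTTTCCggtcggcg
EIF3F (chr11:7987322-7987351, plus strand): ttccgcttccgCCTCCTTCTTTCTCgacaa
EIF4B (chr12:53006441-53006470, plus strand): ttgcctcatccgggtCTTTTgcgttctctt
EIF4A2 (chr3:186783562-186783591, plus strand): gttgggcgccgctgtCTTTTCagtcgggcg
EIF2S3 (chrX:24054941-24054970, plus strand): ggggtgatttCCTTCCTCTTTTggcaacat
EIF2A (chr3:150546772-150546801, plus strand): tcacccgagcggtttCTCTTTCCgggacaa
EIF3K (chr19:38619173-38619202, plus strand): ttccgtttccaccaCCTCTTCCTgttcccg
EIF2B3 (chr1:44986581-44986610, minus strand): attgggctgtcagtcagaggcggcgtggag
EIF2S1 (chr14:67360313-67360342, plus strand): gcgaggaggttccgcatgcgcggtggagtg
EIF4E (chr4:98929119-98929148, minus strand): ccttctggagcggttgtgcgatcagatcga
EIF5AL1 (chr10:79512518-79512547, plus strand): cgtgtaaaatgcctgggtagaggcggcggc

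The elongation factors were higher with GSK458 in all 6 genes as deposited, 3 of them at least 1.5-fold, while EEF1G lay just below 0 with libraries rescaled to a common sum. Of all genes, 49.4% were higher with GSK458 and 8.61% at least 1.5-fold higher. EEF1A1, which carries aminoacyl-tRNA to the ribosome and was the gene of rank 2 to 6 in the table, measured 5785 FPKM under As2O3, 8827 under GSK458 and 8024 under both drugs, against 5216 in the control. EEF2, the translocation factor, measured 1799 FPKM under As2O3, 2448 under GSK458 and 2292 under both drugs, against 1444 in the control. For both genes the libraries with GSK458 were above the others, and the log2 differences of GSK458 from the control were 0.76 and 0.76. EEF1A2, the paralog of EEF1A1 best known from muscle and neurons, stood at 53.6 FPKM under As2O3, 78.5 under GSK458 and 52.8 under both drugs, against 27.5 in the control. Its log2 difference of 1.48 with GSK458 was the highest of all members, and all 3 treated libraries lay above the control.

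The subunits of the exchange factor that recharges eEF1A differed less. EEF1B2, a catalytic subunit, measured 432 FPKM under As2O3, 598 under GSK458 and 491 under both drugs, against 448 in the control, a log2 difference of 0.41 with GSK458. EEF1D measured 315 FPKM under As2O3, 317 under GSK458 and 300.5 under both drugs, against 276 in the control. EEF1G, a structural subunit, stood at 2317 FPKM under As2O3, 2333 under GSK458 and 2235 under both drugs, against 2161 in the control, and its log2 difference with GSK458 was 0.11. The 6 genes together summed to 10701 FPKM under As2O3, 14601 under GSK458 and 13396 under both drugs, against 9573 in the control, which is 1.85% of the library sum under As2O3, 2.48% under GSK458 and 2.36% under both drugs, against 1.76% in the control.

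Among the EIF3 subunits, the scaffold on the small subunit, 10 of 13 were higher with GSK458 (49.4% of all genes were), 5 of them at least 1.5-fold (background 8.61%). EIF3E stood at 402 FPKM under As2O3, 631 under GSK458 and 536 under both drugs, against 356 in the control. EIF3H stood at 264 FPKM under As2O3, 409 under GSK458 and 368 under both drugs, against 235 in the control, and EIF3M at 105 FPKM under As2O3, 159 under GSK458 and 141 under both drugs, against 86.7 in the control. These subunits had log2 differences of 0.82, 0.80 and 0.87 with GSK458 and were higher in both libraries with GSK458 than in either without it. EIF3G, at 288 FPKM with GSK458 against 188 in the control, and EIF3CL made up the 5.

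Further subunits stood just under 1.5-fold or apart from the pattern. EIF3D and EIF3F had log2 differences of 0.58 and 0.58 with GSK458, EIF3L 0.51, and the large subunit EIF3A 0.39. EIF3J, which is loosely bound, measured 35.8 FPKM under As2O3, 38.5 under GSK458 and 36.8 under both drugs, against 33.4 in the control. Lower than the control with GSK458 were EIF3B (62.3 FPKM with GSK458 against 70.8 in the control), EIF3I (156 FPKM with GSK458 against 175 in the control) and EIF3K (263 FPKM with GSK458 against 282 in the control). EIF3B and EIF3I, which form a module of the complex with EIF3G, thus differed in direction from EIF3G. The summed EIF3 level was 2421 FPKM under As2O3, 3153 under GSK458 and 2853 under both drugs, against 2223 in the control.

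**Figure D1:**
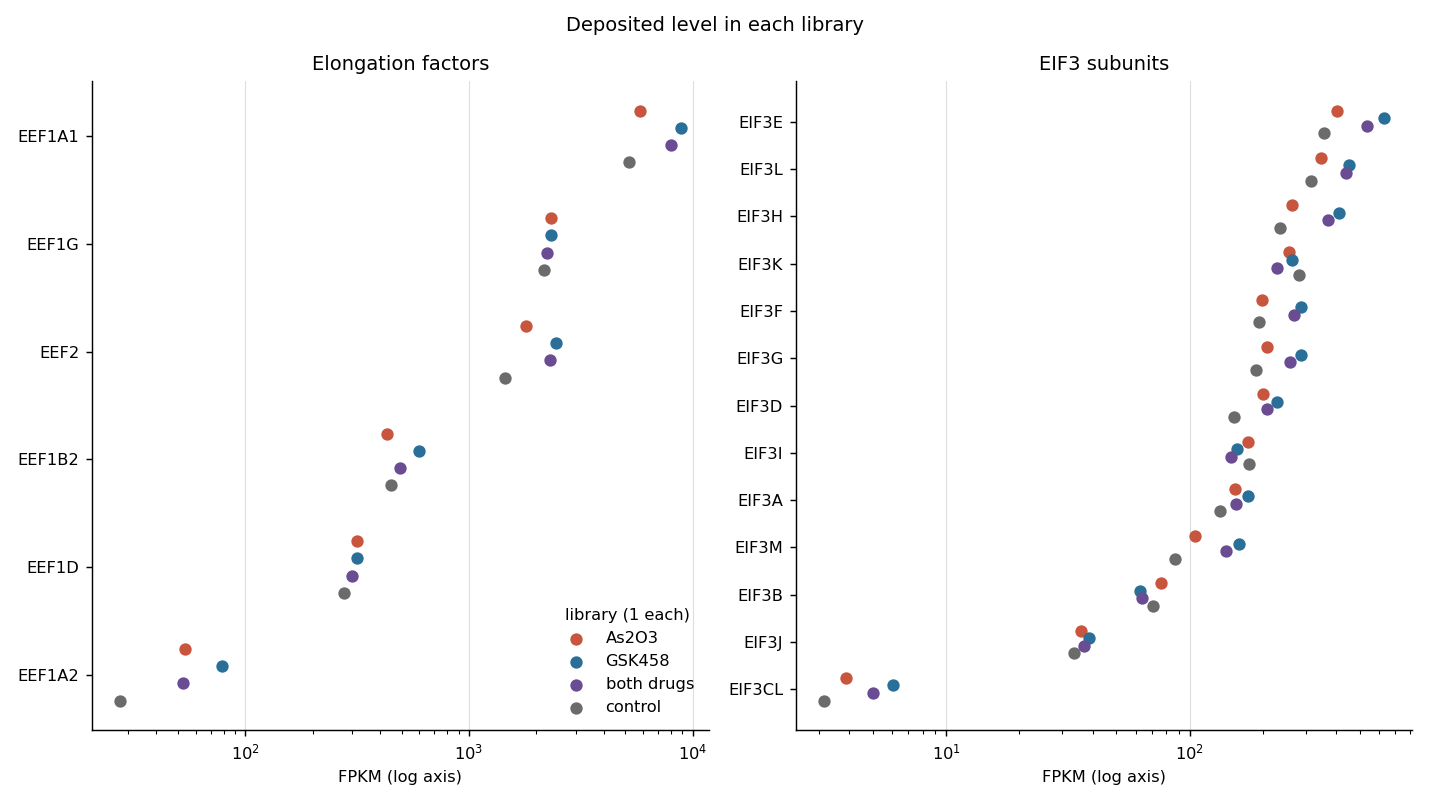
Deposited FPKM (log axis) of the 6 elongation factors and 13 EIF3 subunits, 1 point per library. The GSK458 library is the highest for EEF1A1 (8827 FPKM), EEF2 (2448 FPKM) and EIF3E (631 FPKM), while EEF1G, EIF3B, EIF3I and EIF3K hardly separate the libraries or put the control above GSK458.

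Set side by side, elongation factors and EIF3 subunits had a median log2 difference of 0.58 with GSK458 (16 of 19 higher) and the 35 other factors one of −0.05 (16 higher), beside −0.01 over all 12260 genes. Of the 55 members, 14 were at least 1.5-fold higher with GSK458 and 4 lower, against a background of 8.61% higher and 10.3% lower among all genes. Of those 14, 8 were elongation factors or EIF3 subunits, 5 were other factors, and 1 was the antisense RNA EIF3J-AS1 (6.59 FPKM with GSK458 against 3.70 in the control), whose reads may be confused with those of EIF3J. As deposited 33 members were above the control and 22 below, against 27 and 29 with libraries rescaled to a common sum, which adds 1 gene. With both drugs the medians were 0.46 and −0.15 against the control (0.62 apart), with 11 members higher (background 9.93%) and 4 lower (background 11.7%). The cytosolic ribosomal proteins, also TOP messages, had medians of 0.55 with GSK458 and 0.33 with both drugs over 77 genes.

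**Figure D2:**
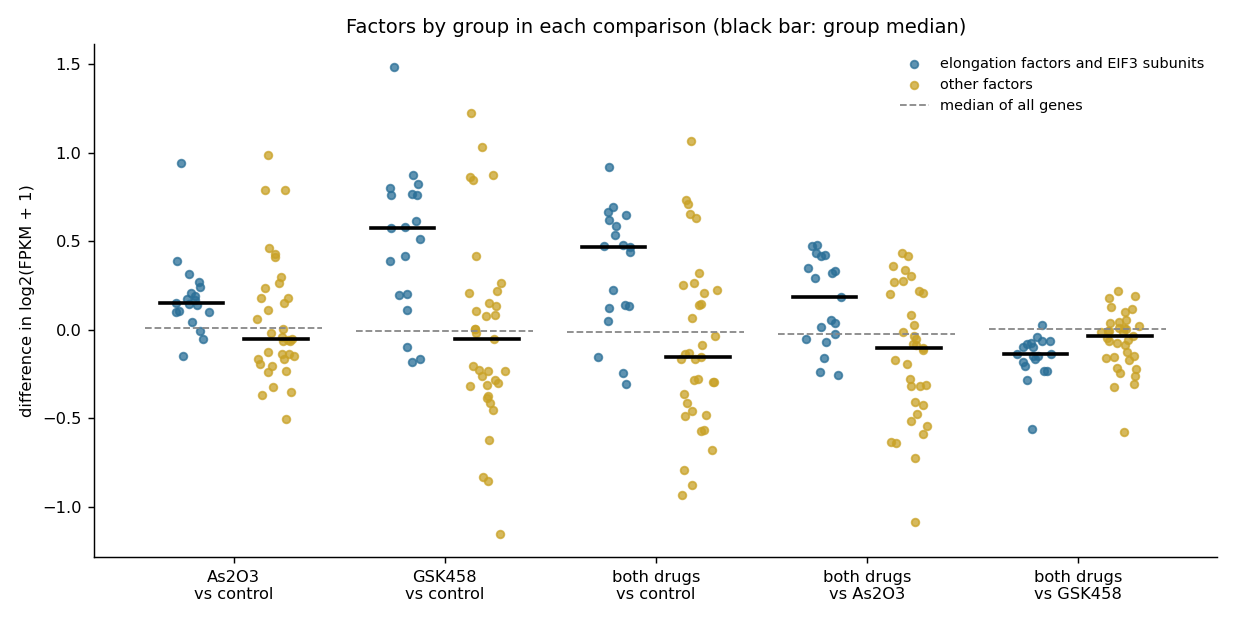
Difference in log2(FPKM + 1) of each factor in the 5 comparisons, by group, with black bars at group medians and dashed lines at the median of all genes. Elongation factors and EIF3 subunits lie above the other factors in the 3 comparisons with the control and in both drugs against As2O3, with medians 0.63 apart for GSK458, and slightly below them (−0.14 against −0.04) for both drugs against GSK458.

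Of the 35 other factors, 5 were at least 1.5-fold higher with GSK458 (background 8.61%), 4 were at least 1.5-fold lower (background 10.3%), and the rest lay between. EIF1, which guards start codon choice, stood at 759 FPKM under As2O3, 897 under GSK458 and 804 under both drugs, against 383 in the control. All 3 treated libraries lay close to each other and far above the control, at log2 differences of 0.98 under As2O3, 1.22 under GSK458 and 1.07 under both drugs. Its paralog EIF1B stood at 54.1 FPKM under As2O3, 54.0 under GSK458 and 53.7 under both drugs, against 44.8 in the control. The other factors of start codon selection lay within 1.5-fold of the control. EIF1AX stood at 37.5 FPKM under As2O3, 51.9 under GSK458 and 43.2 under both drugs, against 48.1 in the control. The GTPase activator EIF5 stood at 27.3 FPKM under As2O3, 35.1 under GSK458 and 35.3 under both drugs, against 30.1 in the control, and the subunit-joining GTPase EIF5B at 37.3 FPKM under As2O3, 36.7 under GSK458 and 33.0 under both drugs, against 37.1 in the control. For EIF1AX and EIF5B the sign of the GSK458 difference changed with the scaling.

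The 3 subunits of eIF2 differed from each other. EIF2S3, the gamma subunit that holds the initiator tRNA, stood at 258 FPKM under As2O3, 381 under GSK458 and 348 under both drugs, against 209 in the control. EIF2S1, the alpha subunit that stress kinases phosphorylate, stood at 18.7 FPKM under As2O3, 12.3 under GSK458 and 12.8 under both drugs, against 19.5 in the control, and so was lower in both libraries with GSK458. EIF2S2, the beta subunit, stood at 99.9 FPKM under As2O3, 60.7 under GSK458 and 60.2 under both drugs, against 57.3 in the control, and so was high in the As2O3 library alone. The log2 differences of GSK458 from the control were 0.86, −0.62 and 0.08 for the gamma, alpha and beta subunits, the last with a sign that changed with the scaling.

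In eIF2B, which recharges eIF2 with GTP, all 5 subunits were lower than the control with GSK458 and with both drugs. EIF2B3, the gamma subunit, stood at 13.2 FPKM under As2O3, 4.74 under GSK458 and 5.69 under both drugs, against 11.8 in the control. Its log2 differences were −1.15 with GSK458, −0.93 with both drugs and −1.08 for both drugs against As2O3, each the lowest among the members, while with As2O3 alone it was 0.15. The other subunits had log2 differences between −0.31 (EIF2B2) and −0.22 (EIF2B1) with GSK458. They were also lower with As2O3 alone, at −0.23 for EIF2B1, −0.17 for EIF2B2, −0.02 for EIF2B4 and −0.19 for EIF2B5. For both drugs against As2O3 the signs of EIF2B1, EIF2B4 and EIF2B5 changed with the scaling. EIF2A and EIF2D, which can place initiator tRNA without eIF2, stood at 66.5 and 43.3 FPKM with GSK458, against 36.6 and 32.2 in the control.

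The helicase genes of eIF4F separated by paralog. EIF4A2 stood at 272 FPKM under As2O3, 321 under GSK458 and 257 under both drugs, against 157 in the control, while EIF4A1 stood at 621 FPKM under As2O3, 555 under GSK458 and 469 under both drugs, against 574 in the control. The ratio of EIF4A2 to EIF4A1 was thus 43.8% under As2O3, 57.9% under GSK458 and 54.8% under both drugs, against 27.3% in the control, and the small GSK458 difference of EIF4A1 (−0.05) changed sign with the scaling. EIF4B, which stimulates the helicase, stood at 345 FPKM under As2O3, 537 under GSK458 and 461 under both drugs, against 293 in the control, and EIF4H, a related protein, at 224 FPKM under As2O3, 168 under GSK458 and 161 under both drugs, against 198 in the control. At log2 differences of 0.87 and −0.23 with GSK458, EIF4B and EIF4H lay on opposite sides of the control.

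The cap-binding and scaffold genes were lower with GSK458 or close to the control. EIF4E, the cap-binding subunit, stood at 33.2 FPKM under As2O3, 21.1 under GSK458 and 21.0 under both drugs, against 29.2 in the control. The scaffold EIF4G1 stood at 47.9 FPKM under As2O3, 45.9 under GSK458 and 46.7 under both drugs, against 60.3 in the control, so all 3 treated libraries lay below it. EIF4G2, a relative that does not bind eIF4E, stood at 152 FPKM under As2O3, 188 under GSK458 and 193 under both drugs, against 216 in the control, and was the lowest member with As2O3 at a log2 difference of −0.50. EIF4E2, a second cap-binding protein, was at −0.37 with GSK458, while EIF4E3 and EIF4G3 were at 0.15 and 0.08, with the sign of EIF4G3 changing with the scaling.

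EIF5A, the hypusine-bearing factor that helps ribosomes past difficult peptide bonds, stood at 398 FPKM under As2O3, 257 under GSK458 and 265 under both drugs, against 459 in the control. Its log2 differences were −0.83 with GSK458 and −0.79 with both drugs. EIF5AL1, whose sequence is close to that of EIF5A, had −0.85 and −0.68 at 1.29 to 3.15 FPKM, and reads may be shared between the pair. EIF5A2 measured 6.83 FPKM under As2O3, 5.72 under GSK458 and 6.28 under both drugs, against 4.82 in the control. EIF6, which keeps the large subunit apart, stood at 96.2 FPKM under As2O3, 115 under GSK458 and 116 under both drugs, against 105 in the control.

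The last 6 members carry a factor's name without a core step of initiation. EEF1E1, a scaffold of the tRNA synthetase complex, stood at 61.1 FPKM under As2O3, 58.4 under GSK458 and 38.9 under both drugs, against 72.2 in the control, and was lowest with both drugs (log2 difference −0.88). EEF1E1-BLOC1S5, a readthrough that includes it, was listed at 3.12 FPKM with both drugs and below 0.01 in the other libraries, so the value of EEF1E1 with both drugs is uncertain. EEF2KMT, which methylates eEF2, had a log2 difference of −0.57 with both drugs, and EIF4A3, the helicase of the exon junction complex, one of −0.49. EEF2K, the kinase that inactivates eEF2, stood at 9.43 FPKM with As2O3 and 8.13 with both drugs, against 8.98 in the control, and was at −0.32 on the log2 scale with GSK458. EIF4ENIF1, which carries eIF4E into the nucleus, stood at 10.8 to 11.3 FPKM in all 4 libraries, and EIF1AD at 12.6 FPKM with As2O3 against 8.90 in the control.

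**Figure D3:**
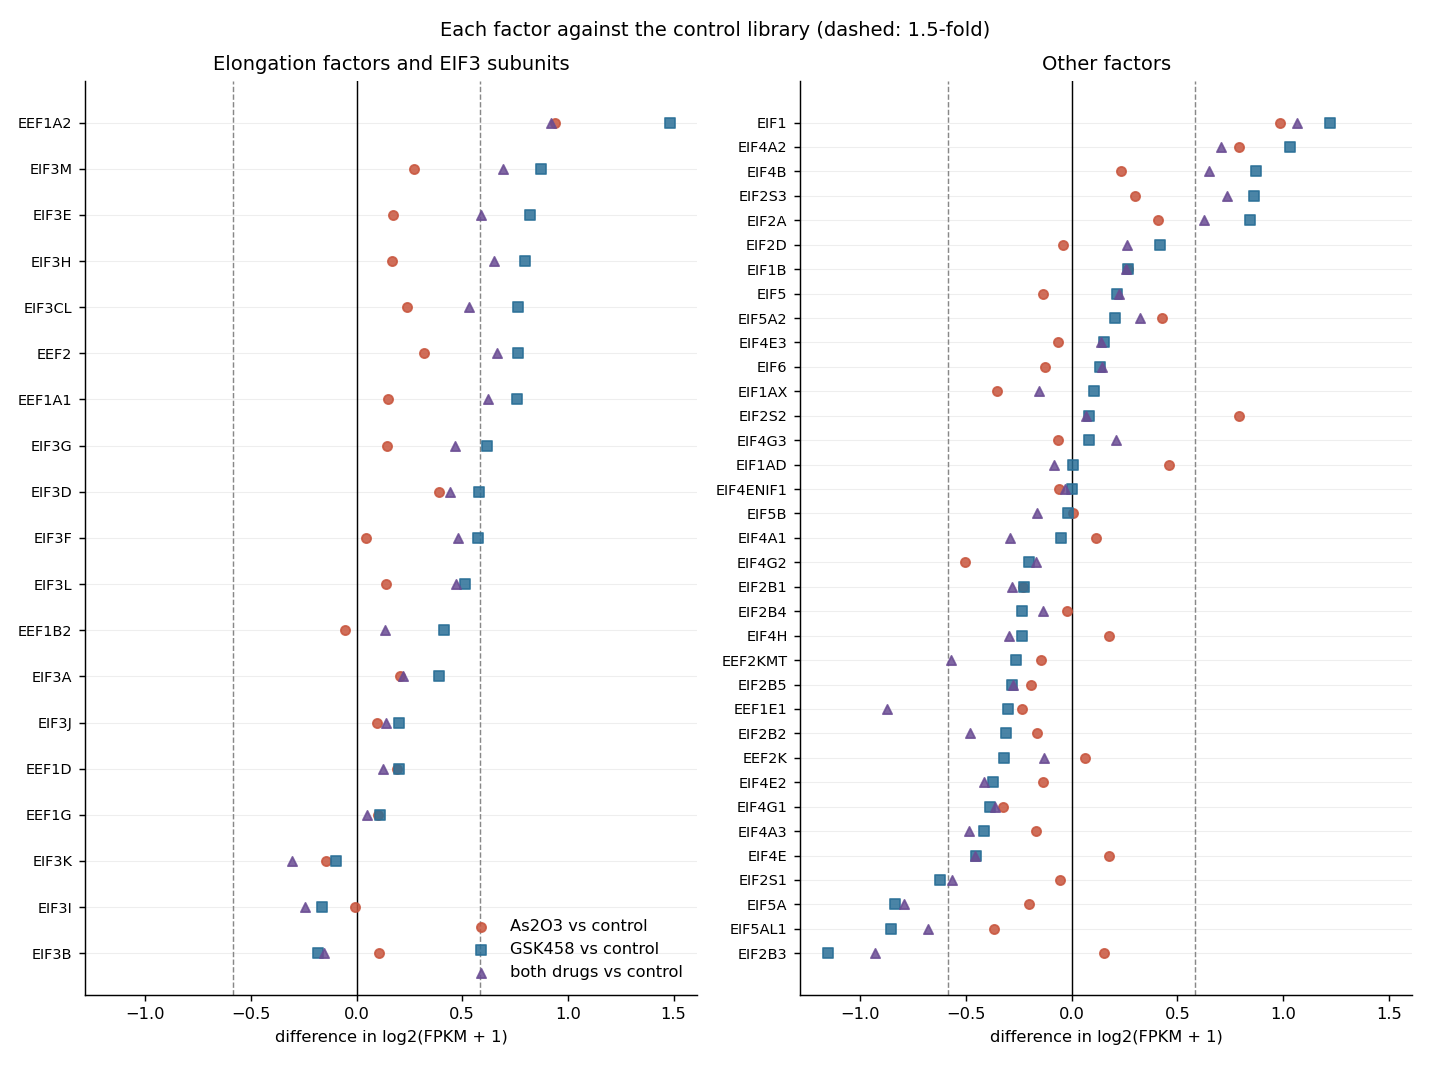
Difference in log2(FPKM + 1) of each of the 54 factors from the control library, sorted by GSK458, with dashed lines at 1.5-fold. GSK458 points run from −1.15 (EIF2B3) to 1.48 (EEF1A2), and As2O3 points pass 1.5-fold higher for EIF1, EEF1A2, EIF2S2 and EIF4A2 alone.

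With As2O3 alone few factors stood apart from the control. At least 1.5-fold higher were 4 of 55 members (7.27%, background 7.43%), namely EIF1, EEF1A2, EIF2S2 and EIF4A2, and 0 were lower (background 6.45%). The median log2 difference was 0.15 for elongation factors and EIF3 subunits (16 of 19 higher) and −0.05 for the other factors (15 of 35 higher), beside 0.01 over all genes.

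GSK458 could be read a second time from both drugs against As2O3, a pair that shares no library with GSK458 against the control. There 0 members were at least 1.5-fold higher (background 9.46%) and 5 were lower (background 11.6%): EIF2B3, EIF2S2, EEF1E1, EIF4E and EIF5A. The medians were 0.19 for elongation factors and EIF3 subunits (13 of 19 higher) and −0.10 for the other factors (12 of 35 higher), beside −0.02 over all genes. As deposited 26 members were higher and 29 lower, against 36 and 19 with upper-quartile scaling. Highest were EIF3H (0.48), EEF1A1 (0.47) and EIF2S3 and EIF3F (0.43 each). Of the 14 members at least 1.5-fold higher with GSK458 alone, 12 were higher in this pair too (85.7%, against 85.6% of all genes so called), and the exceptions EEF1A2 and EIF4A2 stood at −0.02 and −0.08, where each lay above 0 under another scaling. All 4 members lower with GSK458 alone were lower here (92.2% of all genes so called).

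As2O3 could likewise be read from both drugs against GSK458. At 1.5-fold, 0 members were higher (background 2.19%) and 0 lower (background 1.53%, or 3.73% either way). As deposited 14 members were higher and 41 lower, against 22 and 34 with libraries rescaled to a common sum. Of the 4 members at least 1.5-fold higher with As2O3 alone, 0 were higher in this pair as deposited, against 68.7% of all genes so called. Of these members, EIF2S2 stood at −0.01, and at 0.04 with libraries rescaled to a common sum. The sign was the same in both pairs for 30.9% of members and 58.4% of all genes. Elongation factors and EIF3 subunits were slightly lower in 18 of 19 genes (median −0.14), the other factors in 22 of 35 (median −0.04) and all genes in 49.4% (median 0.00), with EIF3L and several other factors near 0 changing sign with the scaling. The ribosomal proteins had a median of −0.22 there, with 73 of 77 lower. The difference of both drugs from the control, less the sum of the differences of each drug, uses all 4 libraries. It was below 0 for all 19 elongation factors and EIF3 subunits (median −0.29; 16 of 19 with libraries rescaled to a common sum, where the median of all genes was 0.13), for 17 of 35 other factors (median 0.02) and for 50.4% of all genes. It was lowest for EEF1A2 (−1.5), EIF1 (−1.14) and EIF4A2 (−1.11), whose 3 treated libraries all lay above the control, and highest for EIF4G2 and EIF5AL1 (0.54 each).

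**Figure D4:**
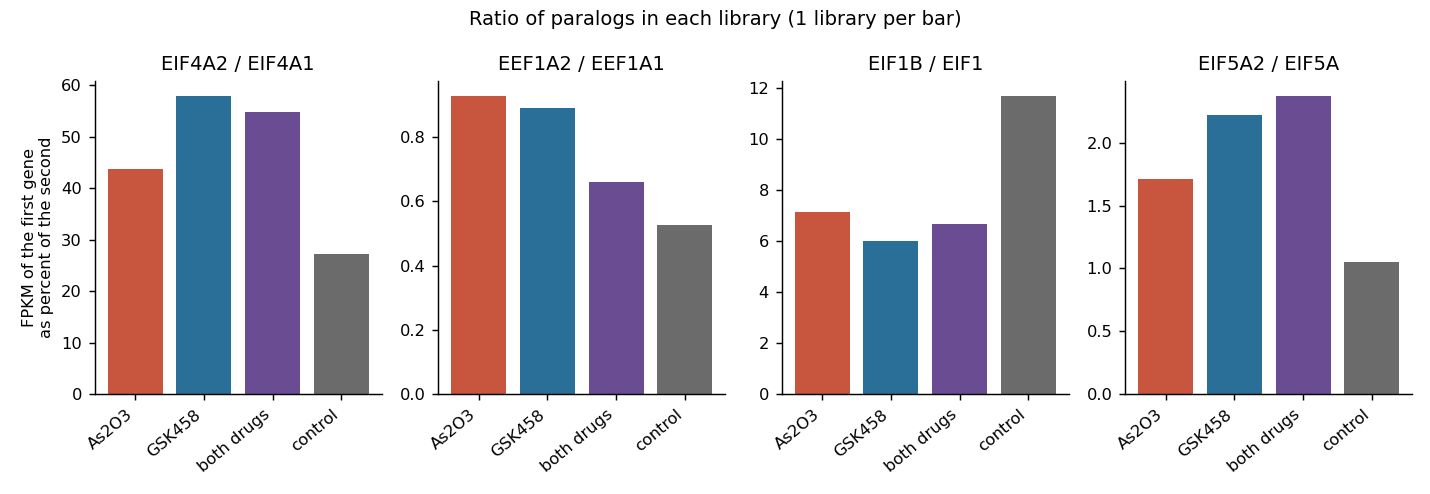
FPKM of one paralog as a percent of the other in each library, from 0 upwards, 1 library per bar. EIF4A2 reaches 57.9% of EIF4A1 with GSK458 against 27.3% in the control, EIF5A2 2.22% of EIF5A with GSK458 against 1.05% in the control, EEF1A2 is below 1% of EEF1A1 in all 4 libraries, and EIF1B is 6.03% of EIF1 with GSK458 against 11.7% in the control.

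The pyrimidine run printed above, counted from a C within 5 bases of the start, was present in 15 of the 34 factors with 1 annotated start (44.1%). It was present in 7 of 10 elongation factors and EIF3 subunits and 8 of 24 other factors, in 82.4% of 51 ribosomal protein genes, in 22.6% of 6559 expressed genes and in 20.8% of all 22114 promoters with 1 start. Read on the opposite strand, the same window held such a run in 14.7% of the members and 18.4% of all promoters. The match describes letters of an annotation and not a measured start. The counted runs of EIF1, EEF2K and EIF5A2 were 5 letters long and began 5 bases before the start, so they ended before the annotated first base. For EIF1 the letters just before these are also C, so its full run begins further from the start, and EIF1 is kept among the 15. Counted within 2 bases of the start, a run was present in 12 of the 34 factors (35.3%) and in 12.7% of expressed genes.

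Members with the run had a median log2 difference of 0.76 with GSK458 (13 of 15 higher, 8 at least 1.5-fold) and those without it one of −0.22 (5 of 19 higher, 0 at least 1.5-fold). Over all expressed genes the medians were 0.05 with the run (809 of 1482 higher, 172 at least 1.5-fold) and −0.05 without it (2243 of 5077 higher, 305 at least 1.5-fold). Within the other factors the medians were 0.85 for 8 genes with the run and −0.26 for 16 without. The ribosomal proteins lay much closer together, with a median of 0.54 with the run (41 of 42 higher) and 0.46 without it (8 of 9 higher). With both drugs the medians of the members were 0.62 and −0.28, with As2O3 0.27 and −0.01, and for both drugs against As2O3 0.22 and −0.31. EEF1G, EIF3B and EIF3I, the elongation and EIF3 members without the run, had log2 differences of 0.11, −0.18 and −0.17 with GSK458. EIF3K (−0.10) and EEF2K (−0.32) held a run and were lower, and EIF3J (0.20) and EIF5A2 (0.21) held one and stayed near the control.

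Among the 10 factors with several starts, EIF5A had a run at 0 of its 6 starts, and EIF2B4, EIF4E3, EIF4G3 and EIF6 at none of theirs. EEF1B2 had one at 1 of 2 starts. EIF4E2, EIF4G1, EIF4G2 and EIF5 also had one at 1 start each, and of these only EIF5 was above the control with GSK458. No entry was found for EEF1A2, EEF1D, EEF2KMT, EIF2S2, EIF3A, EIF3CL, EIF3E, EIF3G, EIF3H and EIF3L.

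**Figure D5:**
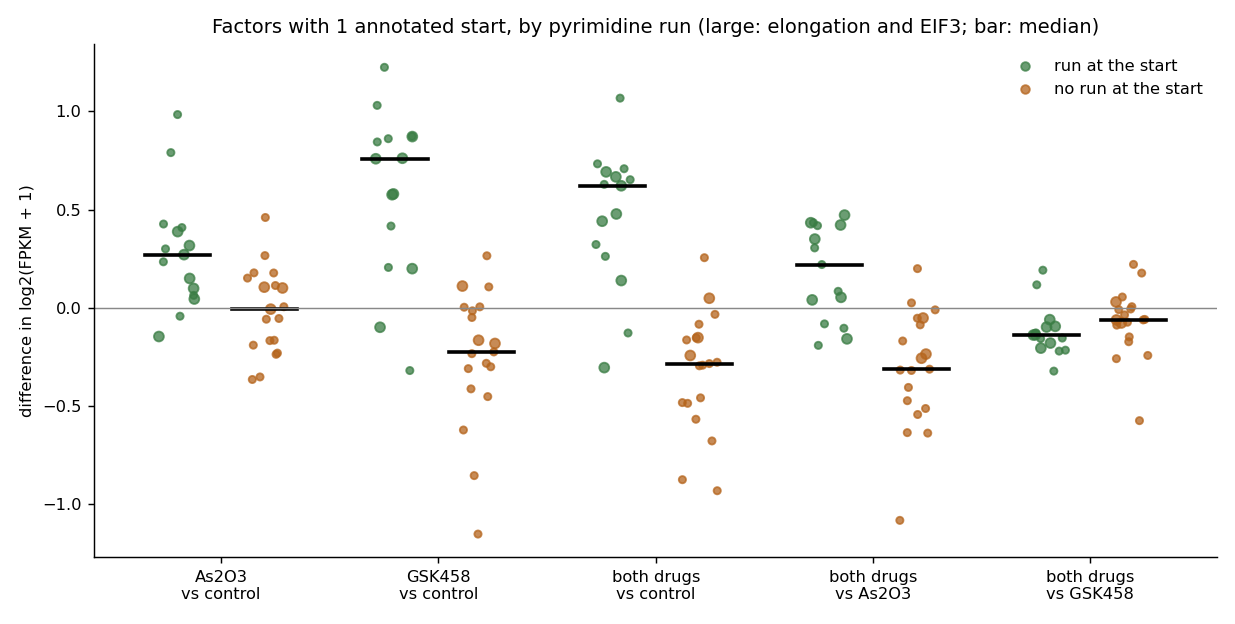
Difference in log2(FPKM + 1) of the 34 factors with 1 annotated start in the 5 comparisons, by a pyrimidine run at or near the start. Bars are at medians, and larger points are elongation factors and EIF3 subunits. With GSK458 the factors with a run have a median of 0.76 and those without one a median of −0.22, and the medians are −0.14 and −0.06 for both drugs against GSK458.

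Genes outside the members that belong to translation or its control were counted by list, beside the shares of all genes given above. At 1.5-fold these shares are 7.43% above and 6.45% below the control for As2O3, and 8.61% above and 10.3% below it for GSK458. Among the 4E-binding proteins and cap kinases, a list that also holds PDCD4 (5 of 6 measured), 1 was at least 1.5-fold higher with As2O3 and 2 lower with GSK458. EIF4EBP1, the repressor of eIF4E, stood at 137 FPKM under As2O3, 36.5 under GSK458 and 45.9 under both drugs, against 60.1 in the control, and the eIF4E kinase MKNK2 at 200 FPKM under As2O3, 94.8 under GSK458 and 106 under both drugs, against 164 in the control. EIF4EBP1 was thus high with As2O3 and low in both libraries with GSK458. EIF4EBP2 was at 40.3 to 51.8 FPKM throughout.

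All 6 eIF2 kinases and phosphatase subunits were higher with As2O3 (51.2% of all genes were), 2 of them at least 1.5-fold. PPP1R15A, which directs the phosphatase of eIF2 alpha, measured 31.9 FPKM under As2O3, 28.2 under GSK458 and 31.5 under both drugs, against 15.4 in the control. PPP1R15B stood at 17.6 FPKM under As2O3, 7.30 under GSK458 and 7.41 under both drugs, against 9.12 in the control. The 8 genes of the mTORC1 and S6 kinase list, RPS6KA1 among them, had a median of −0.21 with GSK458 and none at least 1.5-fold higher. The S6 kinase RPS6KB2, at −0.64, was the 1 past 1.5-fold lower.

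Of 10 poly(A)-binding and scanning partners, 1 was at least 1.5-fold higher with GSK458. This was PABPC1, the poly(A)-binding protein and itself a TOP message, at 551 FPKM under As2O3, 844 under GSK458 and 751 under both drugs, against 446 in the control. With As2O3, PAIP2, a repressor of PABPC1, was at 62.7 FPKM against 41.1 in the control, and the scanning helicase DHX29 at 4.93 FPKM against 8.90 in the control. The recycling factor ABCE1, counted in the same list, was at −0.36 with GSK458 and −0.01 with As2O3. The termination list, which leaves out ABCE1, had 4 measured genes. All 4 were lower than the control with GSK458 (median −0.34, with 50.5% of all genes lower). All 4 were higher with As2O3 (median 0.26, with 51.2% of all genes higher). PELO, a ribosome rescue factor, was at 13.2 FPKM with As2O3 against 8.46 in the control. Of 9 diphthamide and hypusine enzymes, which modify eEF2 and eIF5A, DPH5 was past 1.5-fold with GSK458 (log2 difference 0.92) and DHPS with As2O3 (72.6 FPKM against 47.5 in the control). The 9 mitochondrial translation factors had a median of −0.01 with GSK458, and TSFM was the 1 past 1.5-fold, at 15.7 FPKM against 26.3 in the control. The mitochondrial recycling factor MRRF was the 1 past 1.5-fold with As2O3, at 12.2 FPKM against 19.5 in the control.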

How the data were processed

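RNA of 4 cultures was sequenced from stranded poly(A) libraries, per the labels' protocols. The authors deposited FPKM values per gene symbol. The submitters' processing notes list Cuffdiff 2.2.1, SAMtools 0.1.18, TopHat2 2.1.1, Bowtie2 2.2.8 and the hg19 build, without role or order. The annotation, the strand setting and the handling of multi-mapping reads were not stated, so reads of EIF3J-AS1 and EIF3J may not be separated. Columns were matched to samples by name. Values were used as deposited (pandas 2.3.3) with a pseudocount of 1 FPKM, a mean of 1 FPKM as the minimum and a 1.5-fold threshold, and the counting was checked on simulated data. Start windows came from RefSeq on GRCh38.p14 and were matched by symbol, so their coordinates are not those of the hg19 values. Every member could be named, and genes outside the members came from 7 lists, with those most different from the control given values, plus the cell type markers. Members, lists, threshold and start search were chosen with earlier results of these data known. Alternatives were other pseudocounts, filters, scalings, groupings and a 2-fold threshold.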

Additional observations from a re-analysis of the deposited data

Results flagged for a closer look

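Of the 55 members, 2 went opposite ways by at least 1.25-fold when As2O3 was added without and with GSK458, as did 1.42% of all 12260 genes, and neither difference could be tested with 1 library per group. EEF1A2 was 0.94 higher on the log2 scale with As2O3 than in the control and fell by 0.56 with both drugs relative to GSK458. EIF4A2 was 0.79 higher with As2O3 than in the control and fell by 0.32 with both drugs relative to GSK458. As2O3 against the control and both drugs against GSK458 share no library.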

How the results depend on the processing

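No paired analysis was possible because each group had 1 library, and none could be left out. The median difference between elongation factors with EIF3 subunits and the other factors kept its sign in all 5 comparisons under every alternative run. Its values were 0.13 to 0.31 for As2O3, 0.52 to 0.83 for GSK458, 0.43 to 0.62 for both drugs, 0.14 to 0.31 for both drugs against As2O3 and −0.13 to −0.09 for both drugs against GSK458. Scaling a whole library shifts both groups alike, apart from the pseudocount, so the scalings could hardly change this difference. For GSK458 it was 0.63 as deposited and under each scaling. Leaving out members marked as having copies, among them EEF1A1, EIF4A2 and EIF4B, kept only 6 elongation factors and EIF3 subunits and 21 other factors. In that smaller set the median difference was 0.31 for As2O3 and 0.83 for GSK458. As a mean over each group it was 0.52 for GSK458 and 0.43 for both drugs. With EEF1E1 and EEF2K among the elongation factors it was 0.14 for both drugs against As2O3. At 2-fold, 0 members were higher with As2O3, 3 higher and 1 lower with GSK458, 1 higher and 0 lower with both drugs, and 1 lower for both drugs against As2O3. A pseudocount of 5 FPKM left 2 lower with GSK458 and 3 lower for both drugs against As2O3, and a pseudocount of 0.1 FPKM gave 1 lower for both drugs against GSK458. Rescaling to a common sum gave 1 lower with As2O3, 1 higher for both drugs against As2O3 and 1 higher against GSK458, and no filter gave 1 higher in each of those last pairs. Upper-quartile scaling gave 2 higher and 2 lower for both drugs against As2O3. Rescaling to a common sum put the median of all genes at −0.10 for GSK458. Chosen after the data were seen, run positions within 2 and 10 bases of the start gave medians of 0.76 and 0.58 with the run for GSK458 and −0.20 and −0.18 without it, and any of several starts gave 0.50 and −0.20. The absolute depth is unknown, so counting error cannot be given.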
